A study of Homo sapiens with 28 samples.

Results

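Subcutaneous xenograft tumours of A498, a human clear cell renal carcinoma line, were compared between animals whose tumours had grown on under sorafenib and animals left untreated. The comparison rests on 9 of the 28 arrays of the series, chosen by their treatment label: 5 tumours labelled resistant to sorafenib and 4 labelled untreated in the sorafenib experiment. All 9 tumours were grown in female athymic nude/beige mice that received A498 cells under the skin of the flank at 6 to 8 weeks of age. The drug was dosed by gavage at 80 mg/kg on 6 days of each week, starting when a tumour measured 12 mm across. Tumours were removed either at this starting diameter or at the permitted maximum of 20 mm, and the labels do not say which size the untreated tumours had. The series title names its question as the expression changes that go with resistance to VEGF receptor inhibition. The other arrays are 786-O tumours, of which the 5 resistant and 5 untreated tumours of the sorafenib experiment are used below for a comparison between lines. Each line is a single established line, and the labels do not tie every tumour to a separate mouse, so the p-values reflect only how much these samples vary.

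Sorafenib is an oral kinase inhibitor that blocks VEGF and PDGF receptors, on which tumour vessels depend, and RAF kinases, which feed the MAPK cascade of tumour cells. A498 lacks a working VHL protein, so hypoxia-inducible factors stay active without hypoxia and drive VEGF production. Clear cell carcinomas are thought to arise from the proximal tubule of the nephron and often keep part of its set of transporters and metabolic enzymes. Amino acid shortage and protein folding stress both activate the transcription factor ATF4, which raises genes for amino acid synthesis and the factor CHOP.

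RNA was measured on Affymetrix HG-U133 Plus 2.0 arrays, whose probes are human and can also bind some mouse RNA of the host. The values are linear signals with a trimmed mean of 500.1 on every array, and the medians of the A498 arrays lay between 82.9 and 99.4. Across all probe sets but the controls, A498 arrays of the same group correlated with r between 0.960 and 0.971. A498 arrays of different groups correlated with r between 0.956 and 0.970. The 13 markers of renal carcinoma on the array summed to signals of 106414 to 143720 in untreated and 113517 to 150860 in resistant tumours. PAX8, the renal lineage factor, had signals of 2645, 2443, 2485 and 2519 in untreated and 2856, 2347, 1915, 2245 and 2271 in resistant tumours. The 3-prime minus 5-prime difference of the GAPDH control probe sets, a measure of RNA quality, was 0.05 higher on the log2 scale in resistant tumours (two-sided exact permutation p = 0.214), and that of ACTB 0.01 higher (p = 0.833), where the smallest possible p is 0.00794. These are bulk samples, in which fewer cells of a type and less RNA per cell cannot be told apart.

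Resistant A498 tumours had lower levels of several tubular and epithelial genes, among them SLC17A3, HAVCR1 and CDH16, and higher levels of the ETS factors ETV1, ETV4 and ETV5, of ATF4, DDIT3 and ASNS, and of FEZ1, NCAM1 and CADM1. Of 13808 genes tested, 405 were higher and 470 lower in resistant tumours at a limma adjusted p under 0.05, which is 6.34% in all, 2.93% higher and 3.40% lower. Differences are given on the log2(signal + 16) scale, resistant minus untreated, and this scale understates the change of dim genes. Each is followed by the standard error of the model, which uses a spread shared by all 28 arrays. That spread can be smaller or larger than the spread of the A498 tumours alone, and the adjusted p-values rest on it. A difference of at least 1 was reached by 73 of the genes that rose and 87 of those that fell. The median difference over all genes was 0.03, and 2893 of the 13808 genes had an unadjusted limma p under 0.05. Without any overlap between the 4 untreated and 5 resistant tumours, 4.14% of genes were higher and 5.00% were lower. Centring the arrays on their medians shifted the median of all genes to -0.07 and gave 173 rises and 801 falls. A fit on the 9 A498 arrays alone called 79 rises and 106 falls, of which 166 genes were also called in the fit over 28 arrays. Of the 80 called genes named by rule, 32 kept their call in that fit, among them SLC17A3, HAVCR1, CRYBB3, ABCB1, ETV5, ETV1, ATF4, DDIT3, FEZ1 and NCAM1. The call was lost there for 48, among them SLC2A2, SLC39A5, UGT1A6, WFDC21P, BMPR1B, IL6, PTX3, CDH16 and ETV4. This loss is not repeated below for every gene. Leaving out 1 tumour gave 467 calls without untreated replicate 1, 583 without untreated replicate 4 and 571 without resistant replicate 3.

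**Figure D1:**
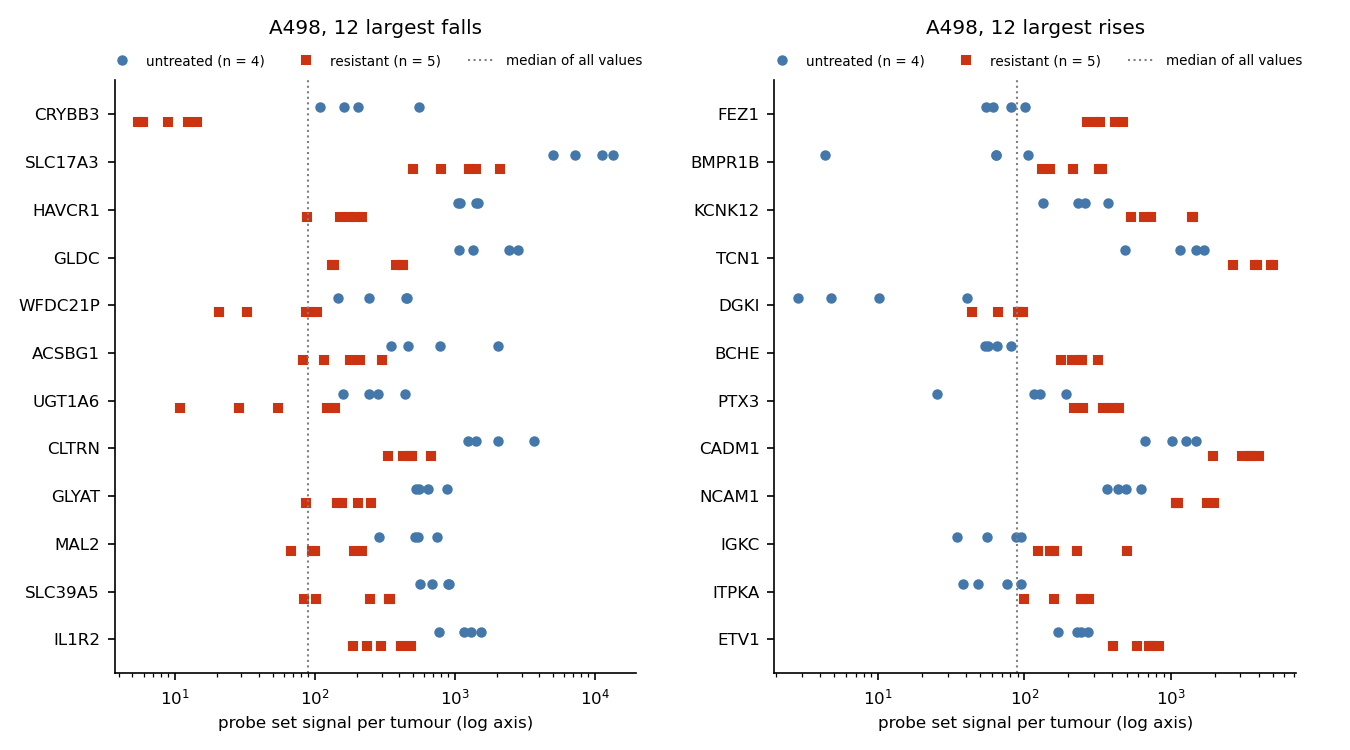
Probe set signal of every A498 tumour (log axis) for the 12 largest falls and the 12 largest rises among called genes whose tumours do not overlap between groups; circles are the 4 untreated and squares the 5 resistant tumours, and the dotted line is the median of all values (89.4). In SLC17A3 the resistant tumours sit between 501 and 2109 and the untreated between 5065 and 13428.

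Genes of the proximal tubule had the lowest median of all lists examined. Of 26 tested members of the list, 6 fell and 1 rose, which is 26.9% beside 6.34% of all genes. Of the 26, 22 lay below 0, with a median of -0.52 beside 0.03 over all genes. SLC17A3, a urate and organic anion transporter of the tubule, had signals of 13428, 7254, 5065 and 11208 in untreated and 2109, 793, 501, 1258 and 1415 in resistant tumours. Every resistant tumour was below every untreated one, and the difference was -2.97 ± 0.45 (adjusted p = 0.000312). Its neighbour in the same transporter cluster, SLC17A1, a sodium-phosphate cotransporter, fell from 456, 298, 222 and 303 to 171, 78.2, 82.4, 97.1 and 152 (-1.36 ± 0.28). GLYAT, which conjugates glycine to acyl groups, gave 877, 552, 525 and 645 in untreated and 251, 204, 86.2, 145 and 158 in resistant tumours, again without overlap (-1.89 ± 0.31, adjusted p = 0.000577). PDZK1, the scaffold that holds transporters at the brush border, fell by 1.21 ± 0.32, and BHMT, which remethylates homocysteine, by 1.04 ± 0.31. SLC22A2, the organic cation transporter OCT2, had 611, 208, 15.1 and 328 in untreated and 14.8, 5.68, 10.2, 23 and 8.39 in resistant tumours (-2.82 ± 0.75). Untreated replicate 3 lay within the range of the resistant tumours for SLC22A2, and its call was lost without untreated replicate 1, 2 or 4 (adjusted p up to 0.115). PCK2, the mitochondrial form of phosphoenolpyruvate carboxykinase, was the 1 member that rose (0.33 ± 0.10). LRP2, the endocytic receptor megalin, differed by -1.47 ± 0.54 and overlapped between the groups (adjusted p = 0.108). The untreated tumours differed among themselves, with replicate 1 highest for SLC17A3, SLC17A1, SLC22A2 and GLYAT. Without untreated replicate 1 or without untreated replicate 4, 3 members fell and none rose, and without untreated replicate 2, resistant replicate 2 or resistant replicate 3, 4 fell. The rise of PCK2 was lost without any 1 of 7 tumours, that is all but resistant replicates 1 and 5. The fit on the 9 A498 arrays called 4 falls in the list.

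The promoters of the 2 neighbouring transporter genes are shown because both genes fell in all resistant tumours, with the letters TGATGNAA, a core that ATF4 and C/EBP factors can bind, in capitals where they occur on either strand. The sequences are those of RefSeq on GRCh38.p14, from 250 bases before to 50 bases after the annotated start. SLC17A3 lies on the minus strand with its window at chr6:25874194-25874493, and SLC17A1 on the minus strand at chr6:25832003-25832302. The letters occur in SLC17A3, 172 bases before the start, and not in the window of SLC17A1.
SLC17A3: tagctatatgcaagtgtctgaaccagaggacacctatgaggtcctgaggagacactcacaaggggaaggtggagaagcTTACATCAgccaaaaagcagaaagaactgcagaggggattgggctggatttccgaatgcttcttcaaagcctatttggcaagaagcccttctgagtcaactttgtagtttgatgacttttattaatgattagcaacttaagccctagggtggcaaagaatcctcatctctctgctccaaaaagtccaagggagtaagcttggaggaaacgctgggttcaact
SLC17A1: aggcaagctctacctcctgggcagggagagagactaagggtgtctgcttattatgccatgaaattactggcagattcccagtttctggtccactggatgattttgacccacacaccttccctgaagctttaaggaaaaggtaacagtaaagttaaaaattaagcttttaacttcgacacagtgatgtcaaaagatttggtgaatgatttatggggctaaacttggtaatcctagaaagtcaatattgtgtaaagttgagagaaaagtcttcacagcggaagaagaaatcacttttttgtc

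Among the largest falls of all were HAVCR1, CLTRN, SLC39A5 and SLC2A2, which belong to none of the 41 lists. HAVCR1, or kidney injury molecule 1, a surface protein of injured tubule cells and of clear cell carcinoma, had signals of 1099, 1466, 1063 and 1409 in untreated and 152, 88.2, 173, 216 and 194 in resistant tumours. The highest resistant value was far below the lowest untreated value, and the difference was -2.85 ± 0.29 (adjusted p = 1.62e-06). CLTRN, or collectrin, which carries amino acid transporters to the brush border, fell from 3702, 1418, 1235 and 2025 to 428, 336, 491, 496 and 677 (-1.97 ± 0.33). SLC39A5, a zinc importer, had 917, 689, 561 and 898 in untreated and 343, 83.4, 103, 249 and 338 in resistant tumours (-1.88 ± 0.36). SLC2A2, the glucose transporter GLUT2, fell by 3.16 ± 0.53, but resistant replicate 5, at 313, was above the lowest untreated tumour, at 269. The call of SLC2A2 was lost in the fit on the 9 A498 arrays. Of 18 tested members of the kidney lineage list, 1 rose and 1 fell, which is 11.1% beside 6.34% of all genes. Of the 18, 8 lay above and 10 below 0, and the median was -0.10. The fall was in FXYD2, the gamma subunit of the sodium pump in the kidney (-1.48 ± 0.37), and the rise in WT1, a transcription factor of the early nephron (0.93 ± 0.17). The call of FXYD2 was lost without resistant replicate 2 (adjusted p = 0.0506) and when probe sets open to cross-hybridisation were left out. Here and below, that setting drops every probe set with the suffix _s_at, _x_at or _a_at, whether or not it binds other genes.

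The other large falls were in genes of several kinds. CRYBB3, a beta crystallin, showed the largest fall of all, from 555, 109, 204 and 162 in untreated to 5.5, 9.0, 5.98, 14.4 and 12.4 in resistant tumours, all 5 of which were far below the median signal of 89.4 (-3.19 ± 0.24, adjusted p = 1.1e-08). GLDC, the glycine decarboxylase that breaks glycine down in mitochondria, had 2846, 1356, 1068 and 2454 in untreated and 418, 137, 134, 429 and 379.7 in resistant tumours (-2.68 ± 0.69). Its call was lost without untreated replicate 1, untreated replicate 4 or resistant replicate 3, with adjusted p-values up to 0.072. IL1R2, a decoy receptor for interleukin 1, fell from 1299, 1161, 777 and 1552 to 237, 298, 188, 489 and 413 without overlap (-1.87 ± 0.27). MAL2, a membrane protein of apical transport, fell by 1.88 ± 0.38 and ACSBG1, an acyl-CoA synthetase, by 2.03 ± 0.46, the latter with a call lost without untreated replicate 1 (adjusted p = 0.0528). WFDC21P, a noncoding pseudogene transcript, fell by 2.05 ± 0.35.

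Among epithelial genes, all calls were falls. Of 23 tested members, 4 fell and none rose, which is 17.4% beside 6.34% of all genes. Of the 23, 18 lay below 0, and the median was -0.35. At an unadjusted p under 0.05, 10 members were lower and 1 was higher, beside 2893 of all 13808 genes in either direction. CDH16, the kidney-specific cadherin, had signals of 231, 229.9, 137 and 276 in untreated and 85.6, 16, 43.1, 91.7 and 96.3 in resistant tumours, which did not overlap (-1.61 ± 0.33). CLDN3, a tight junction claudin, fell from 138, 113, 123 and 113 to 22, 24.2, 10.5, 66.3 and 90.9 (-1.42 ± 0.37). SPINT2, an inhibitor of membrane proteases, fell by 0.79 ± 0.18 and KRT8, a keratin of simple epithelia, by 0.44 ± 0.12, both with overlap between the groups. The call of CLDN3 was lost without untreated replicate 1, resistant replicate 2 or resistant replicate 3 (adjusted p up to 0.0753), and that of KRT8 without untreated replicate 1, 2 or 4 or resistant replicate 3 (adjusted p up to 0.109). KRT18, the partner of KRT8, differed by -0.18 ± 0.13 (adjusted p = 0.472). CDH1 was below the intensity filter and was not tested. The list had 2 falls without untreated replicate 1 or resistant replicate 3 and had 0 in the fit on the 9 A498 arrays. With probe sets open to cross-hybridisation left out, 1 fall was called.

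**Figure D2:**
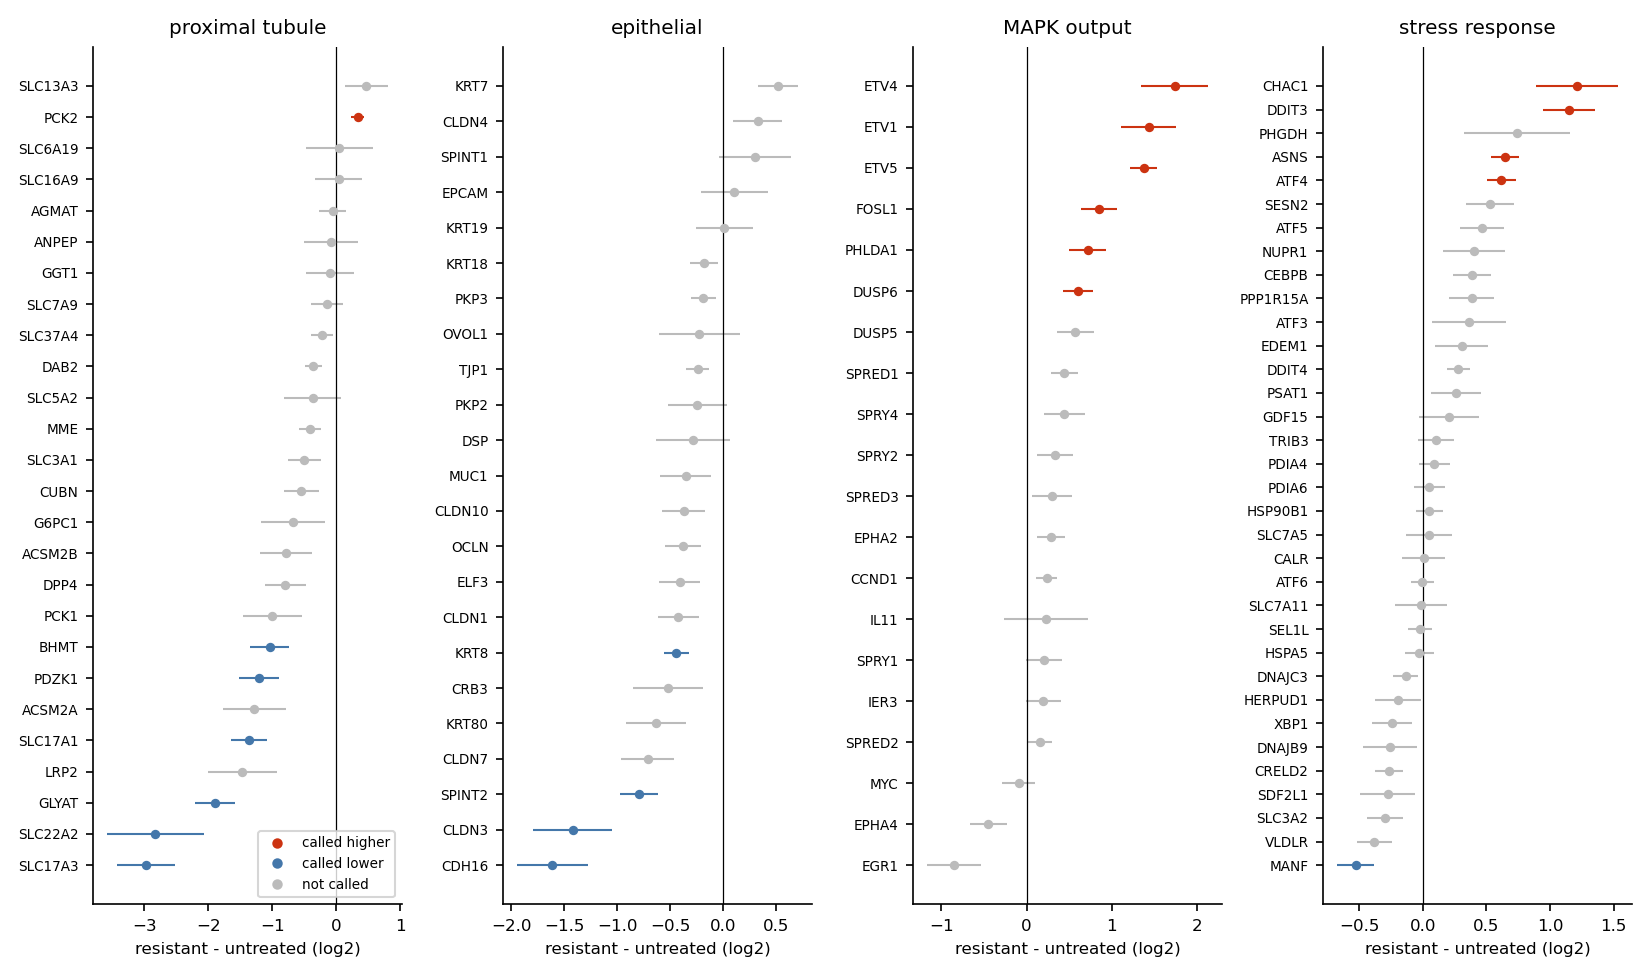
Resistant minus untreated difference (log2) of each tested member of 4 gene lists in A498, with bars of 1 standard error of the limma model; red points were called higher, blue called lower and grey not called. Most proximal tubule and epithelial members lie left of 0, while ETV4, ETV1 and ETV5 lead the MAPK output list and CHAC1 and DDIT3 the stress response list.

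Genes of drug transport and metabolism included some of the brightest falls. ABCB1, the efflux pump P-glycoprotein, had signals of 3828, 3129.7, 2824 and 3416 in untreated and 1505, 904, 941, 1180.0 and 1354 in resistant tumours. The lowest untreated tumour was above the highest resistant one, and the difference was -1.49 ± 0.18 (adjusted p = 1.79e-05). ALDH8A1, an aldehyde dehydrogenase of tryptophan breakdown in liver and kidney, fell from 8680.3, 4972, 4359 and 7535 to 2275, 1803, 726, 1729 and 2836 (-1.83 ± 0.38). UGT1A6, a glucuronosyltransferase whose probe set can also bind other members of the UGT1A locus, fell by 1.98 ± 0.40. SLCO4A1, an organic anion uptake transporter, rose from 332, 290.0, 513 and 282 to 1213, 988, 634, 729 and 538 (1.15 ± 0.25). The call of SLCO4A1 was lost in the fit on the 9 A498 arrays and with the mean of its probe sets, where the difference was 0.43. Of 25 tested members of the list, 3 fell and 1 rose, which is 16% beside 6.34% of all genes. ABCG2, the efflux pump BCRP, had 278, 304, 341 and 310.1 in untreated and 399, 344, 232, 282 and 301 in resistant tumours, a difference of -0.01 ± 0.31 (adjusted p = 0.995).

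Several genes that report MAPK output were higher in resistant tumours. Of 20 tested members, 6 rose and none fell, which is 30% beside 6.34% of all genes. Of the 20, 17 lay above 0, with a median of 0.31, or 0.22 after centring on the median, where 4 rose. At an unadjusted p under 0.05, 8 members were higher and 2 were lower, beside 2893 of all 13808 genes in either direction. The 3 ETS factors of the PEA3 family, which ERK signalling induces, led the list. ETV5 had signals of 359, 406, 536 and 354 in untreated and 926, 1248, 1186, 1166 and 935 in resistant tumours, with every resistant tumour higher (1.38 ± 0.16, adjusted p = 1.05e-05). Its call was lost when probe sets open to cross-hybridisation were left out (1.02, adjusted p = 0.208). ETV1 rose from 246, 229, 274 and 169 to 711, 833, 746, 588 and 402 (1.43 ± 0.32), also without overlap. ETV4 was dim in untreated tumours, at 21, 46.2, 151 and 35.8, and reached 144, 186, 255, 265 and 207 in resistant tumours, of which the lowest lay below untreated replicate 3 (1.74 ± 0.39). FOSL1, an AP-1 subunit, rose by 0.85 ± 0.21, and its call was lost without untreated replicate 4 (adjusted p = 0.0703). DUSP6, the phosphatase that ERK induces as its own brake, had 439.9, 389, 476 and 535 in untreated and 602, 1004, 622, 585 and 767 in resistant tumours (0.60 ± 0.17, adjusted p = 0.0377). EGR1, an immediate early target of ERK, lay on the other side at -0.85 ± 0.31 (adjusted p = 0.107), and its groups overlapped. The ligand TGFA, which activates the EGF receptor, rose from 3527, 3692, 4115 and 3528 to 5745, 5317, 8211, 6988 and 5809.6 (0.77 ± 0.15), whereas NRG1, a ligand of the ERBB3 and ERBB4 receptors, fell by 0.65 ± 0.15. The calls of NRG1 and TGFA were lost with the mean of their probe sets, which gave -0.22 for NRG1 and 0.64 for TGFA. The call of NRG1 was also lost without probe sets open to cross-hybridisation, where it differed by -0.10. The MAPK list had 4 rises without untreated replicate 1, 2 or 4 or resistant replicate 2, and the fit on the 9 A498 arrays called 2. It had 5 rises and 1 fall without resistant replicate 1 and with the GAPDH difference as a covariate.

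ATF4 and several of its targets were higher in every resistant tumour. ATF4 itself, the effector of the integrated stress response, had signals of 4926, 6111, 6955 and 6039.7 in untreated and 8118, 9669, 9853, 8531 and 9801 in resistant tumours (0.62 ± 0.11, adjusted p = 0.00177). DDIT3, which encodes CHOP, rose from 471, 376, 402 and 477 to 901, 1199, 902, 836 and 1055, with the lowest resistant tumour well above the highest untreated one (1.15 ± 0.20, adjusted p = 0.00144). ASNS, the asparagine synthetase, rose from 1484, 1814, 2053 and 2167 to 2912, 2844, 3337, 2723 and 2816 (0.65 ± 0.11). All 3 kept their groups apart, and the differences were modest beside those of the tubular genes. CHAC1, which degrades glutathione, was dim, at 43.1, 67.1, 16.5 and 116 in untreated and 161, 166, 122, 133 and 128 in resistant tumours (1.21 ± 0.32). Its call was lost without untreated replicate 1, untreated replicate 3 or resistant replicate 2, with adjusted p-values up to 0.0963. Of 34 tested members of the stress response list, 4 rose and 1 fell, which is 14.7% beside 6.34% of all genes. The list median was 0.07, close to that of all genes. The fall was in MANF, a factor secreted under endoplasmic reticulum stress (-0.53 ± 0.15), and was lost without untreated replicate 1 or 2 or resistant replicate 1 or 4. The chaperone HSPA5, or BiP, differed by -0.03 ± 0.11 (adjusted p = 0.934), TRIB3, a target of ATF4 and CHOP, by 0.11 ± 0.14 (adjusted p = 0.724), and the factor XBP1 by -0.24 ± 0.16 (adjusted p = 0.396).

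The amino acid supply list holds enzymes that make, charge or break down amino acids and transporters that carry them. Of its 22 tested members, 5 rose, 1, GLDC, fell and 16 were not called, with a median of 0.22. The share called was 27.3%, beside 6.34% of all genes. MTHFD2, the mitochondrial enzyme of folate metabolism, had 2756, 3575, 2968 and 4065 in untreated and 4669.5, 5487, 5779, 5202 and 5486 in resistant tumours, without overlap (0.68 ± 0.13, adjusted p = 0.00213). PSPH, the last enzyme of serine synthesis, rose from 2737, 2911, 3417 and 2986 to 4160.1, 4785, 5106, 4674 and 4703 (0.64 ± 0.14). The tRNA synthetases WARS1 (0.55 ± 0.11) and GARS1 (0.33 ± 0.09) also rose, and the GARS1 groups overlapped. The synthetases NARS1 (-0.24 ± 0.09) and SARS1 (0.16 ± 0.09) did not pass the test (adjusted p = 0.102 and 0.282). PHGDH, the first enzyme of serine synthesis, differed by 0.74 ± 0.42 with wide spread (adjusted p = 0.317). The cystine transporter SLC7A11 differed by -0.02 ± 0.20 (adjusted p = 0.981). ASNS and PSPH lost their calls when all their single-symbol probe sets were averaged (0.36 and 0.28). With probe sets averaged, or with those open to cross-hybridisation left out, 3 members of the list rose.

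The promoters of 3 genes of this group are printed to show where the ATF4 and C/EBP letters TGATGNAA lie in genes that moved together, again from RefSeq on GRCh38.p14 and with matches on either strand in capitals. ASNS is on the minus strand at chr7:97872359-97872658 with a match 68 bases before the start, CHAC1 on the plus strand at chr15:40953221-40953520 with a match 209 bases before the start, and DDIT3 on the minus strand at chr12:57520465-57520764 without a match in this window.
ASNS: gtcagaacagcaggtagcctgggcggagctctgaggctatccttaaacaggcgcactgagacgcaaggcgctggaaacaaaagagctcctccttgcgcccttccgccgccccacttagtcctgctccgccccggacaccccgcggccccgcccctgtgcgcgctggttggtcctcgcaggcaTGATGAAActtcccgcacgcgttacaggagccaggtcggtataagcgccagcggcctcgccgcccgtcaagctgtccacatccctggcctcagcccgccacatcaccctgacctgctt
CHAC1: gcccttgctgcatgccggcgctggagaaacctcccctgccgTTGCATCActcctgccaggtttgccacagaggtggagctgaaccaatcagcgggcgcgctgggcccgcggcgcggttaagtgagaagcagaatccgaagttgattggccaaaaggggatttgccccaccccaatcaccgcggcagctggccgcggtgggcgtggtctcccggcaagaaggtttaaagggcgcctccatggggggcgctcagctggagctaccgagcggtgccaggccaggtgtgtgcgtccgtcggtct
DDIT3: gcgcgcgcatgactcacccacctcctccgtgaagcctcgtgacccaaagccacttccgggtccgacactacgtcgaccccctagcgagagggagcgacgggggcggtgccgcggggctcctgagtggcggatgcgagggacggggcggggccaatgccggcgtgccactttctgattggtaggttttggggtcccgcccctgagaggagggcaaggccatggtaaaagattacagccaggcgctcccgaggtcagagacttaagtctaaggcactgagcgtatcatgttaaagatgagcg

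Of the 7 genes in either the stress response or the amino acid supply list that rose and have a promoter, 2 held the letters. So did 7 of the 36 genes in either list that were not called. Among the 11113 tested genes with a promoter, 2.05% held them, beside 12 of 329 genes that rose (3.65%) and 19 of 386 that fell (4.92%). The AP-1 letters TGANTCA were in 4.84% of all, 3.95% of rises and 6.99% of falls, and the CRE letters TGACGTCA in 3.06%, 3.34% and 1.04%. The hypoxia letters ACGTG were in 26.1%, 28.6% and 23.3%, and the E-box CACGTG, which contains them, in 9.93%, 8.21% and 8.81%. The letters TATAAA of the TATA box were in 6.14%, 7.60% and 7.77%, TTTGGCGC of E2F in 0.963%, 0.304% and 1.04%, and TGANNNNGC of NRF2 in 42.9%, 45.9% and 46.1%. All letters were searched on both strands, and these shares are a description.

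FEZ1, CADM1 and BCHE, which belong to none of the 41 lists, and NCAM1 and ENO2 of the neural list were among the genes that rose. FEZ1, an adaptor of axonal transport, had signals of 54.8, 61, 101 and 81.5 in untreated tumours, near the median of the arrays, and 309, 472, 329, 415 and 269 in resistant tumours (2.05 ± 0.26, adjusted p = 4.78e-05). NCAM1, the neural cell adhesion molecule, rose from 368, 629.7, 435 and 497 to 1789, 1982, 1084, 1090.2 and 1123, with resistant replicates 1 and 2 highest and no overlap (1.49 ± 0.19, adjusted p = 4.78e-05). CADM1, an adhesion molecule of the immunoglobulin family, rose from 669.9, 1284, 1496 and 1019 to 1963, 4058, 3583, 3523 and 3079 (1.54 ± 0.25). BCHE, the butyrylcholinesterase, had 56.3, 64.8, 80.6 and 54.2 in untreated and 179, 249.6, 245, 319.8 and 213 in resistant tumours (1.67 ± 0.18). ENO2, the neuronal form of enolase, rose from 53.2, 102, 102 and 63 to 148, 257, 241, 263 and 214 (1.34 ± 0.17). All 5 kept their calls when any 1 tumour was left out, and the mean of probe sets gave smaller differences for FEZ1 (1.12), NCAM1 (0.60) and CADM1 (0.98). Of 25 tested members of the neural list, 4 rose and 1 fell, which is 20% beside 6.34% of all genes. The list median was 0.10, and 19 other members were below the intensity filter. SCG5, a chaperone of neuroendocrine secretory granules (1.70 ± 0.48), and DPYSL3, a regulator of axon growth (0.81 ± 0.18), were the other rises, and NLGN1, a synaptic adhesion protein, the fall (-0.64 ± 0.18), which was lost without any 1 of 7 tumours, that is all but untreated replicate 3 and resistant replicate 1. CHGA, the chromogranin of secretory granules, differed by -0.94 ± 0.51 (adjusted p = 0.304). The call of DPYSL3 was lost in the fit on the 9 A498 arrays, with the mean of its probe sets (0.57) and without probe sets open to cross-hybridisation (0.29). The call of SCG5 was lost in the fits without untreated replicate 1, 2 or 4 or resistant replicate 3, 4 or 5, with adjusted p-values up to 0.145.

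Further large rises were in TCN1, a vitamin B12 binding protein that is secreted, with 486, 1502, 1687 and 1169 in untreated and 4841, 3773, 4998, 2659 and 3934 in resistant tumours (1.83 ± 0.27, adjusted p = 0.000245). Untreated replicate 1 was the lowest, and the groups did not overlap. KCNK12, a potassium channel subunit, rose from 133, 232, 372 and 259 to 1410.3, 539, 1421, 662 and 733 (1.84 ± 0.38). TMEM158, a membrane protein induced by RAS signalling, rose from 429, 591, 547 and 575 to 813, 1459, 1283, 1378 and 998 (1.10 ± 0.22). DGKI, a diacylglycerol kinase, and ITPKA, an inositol trisphosphate kinase, rose by 1.73 ± 0.44 and 1.46 ± 0.42 from dim levels. The call of DGKI was lost without untreated replicate 1 or untreated replicate 3 (adjusted p up to 0.0697), and that of ITPKA without any 1 of 7 tumours, namely untreated replicates 1, 2 and 4 and resistant replicates 1, 2, 3 and 5 (adjusted p up to 0.116).

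Members of the BMP pathway moved in both directions. BMP2, a secreted ligand, fell from 494, 472, 431 and 608 in untreated to 187, 162, 199.6, 221 and 214 in resistant tumours, without overlap (-1.28 ± 0.25, adjusted p = 0.00379). BMPR1B, a type I receptor for BMP ligands, rose from 4.32, 64.1, 64.4 and 105 to 149.8, 131, 326, 338 and 214 (1.88 ± 0.39, or 0.98 with the mean of its probe sets). ID3, a target gene of BMP signalling, fell by 0.97 ± 0.30 with overlapping groups, and PMEPA1, an inhibitor of TGF-beta signalling that TGF-beta induces, rose by 0.65 ± 0.19. Of 27 tested members of the list, 2 rose and 2 fell, which is 14.8% beside 6.34% of all genes. The call of ID3 was lost without untreated replicate 1, 2 or 4 or resistant replicate 2, 3 or 5, and that of PMEPA1 without untreated replicate 1 or 4 or resistant replicate 3, 4 or 5, with adjusted p-values up to 0.169 and 0.161. Both calls were also lost when probe sets were averaged.

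Most matrix and mesenchymal genes lay above the median of all genes. Of 34 tested matrix genes, 3 rose and 1 fell, which is 11.8% beside 6.34% of all genes, and 27 lay above 0, with a median of 0.33. LAMB1, a laminin chain of basement membranes, had 3974, 3906, 4442 and 3386 in untreated and 6038, 6164, 7931, 6197 and 7065 in resistant tumours (0.76 ± 0.11, adjusted p = 0.000113). COL5A1, a fibrillar collagen chain, rose from 477, 802, 792 and 842 to 861, 1867, 1879, 2507 and 1583 (1.19 ± 0.34), and NID1, a basement membrane linker, by 0.48 ± 0.12. THBS1, a matrix protein that restrains angiogenesis, fell by 1.17 ± 0.21. The call of THBS1 was lost with the mean of its probe sets (-0.42), without probe sets open to cross-hybridisation (-0.38) and in the fit on the 9 A498 arrays, and 1 of its 4 other tested probe sets gave the same call. Of 22 tested mesenchymal genes, 2 rose, or 9.09%, with a median of 0.26. CD44, the hyaluronan receptor, rose from 10815, 11271, 10152 and 10464 to 15045, 18199, 14174, 13173 and 13819.7 (0.47 ± 0.10), a call lost with the mean of its probe sets (0.41). S100A4, a calcium-binding protein of motile cells, had 328, 850.0, 787 and 617 in untreated and 778, 2864, 10814, 5030.2 and 2836 in resistant tumours, and resistant replicate 1 lay within the untreated range (2.38 ± 0.64). SNAI2 differed by 0.74 ± 0.27 (adjusted p = 0.101). The calls of COL5A1 and S100A4 were lost without untreated replicate 1, untreated replicate 4, resistant replicate 3 or resistant replicate 4, and that of COL5A1 also without untreated replicate 2, resistant replicate 2 or resistant replicate 5 (adjusted p up to 0.13 and 0.0996). COL5A1 also lost its call without probe sets open to cross-hybridisation (adjusted p = 0.17). NID1 lost its call without untreated replicate 4 (adjusted p = 0.0607). After centring on the median, 1 matrix gene rose and 2 fell. Without untreated replicate 4, 1 matrix gene rose, and without resistant replicate 1, 5 did. Of the mesenchymal genes, 4 rose without resistant replicate 1, and 1 rose without untreated replicate 1, untreated replicate 4, resistant replicate 3 or resistant replicate 4.

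Markers of fibroblasts and pericytes, which share collagens with the matrix list, lay mostly above 0 (13 of 17 tested), but none was called. Their 20 signals summed to 8273, 16120.4, 13613 and 17535 in untreated and 11736, 27464, 22423, 21139.7 and 19554 in resistant tumours, so untreated replicate 1 and resistant replicate 1 were the lowest of their groups. The groups overlapped, with resistant replicate 1 inside the untreated range. None of 17 tested members was called in the limma fit, and the median was 0.30. At an unadjusted p under 0.05, 3 were higher and 0 lower, beside 2893 of all 13808 genes in either direction. Of the 3 markers below the filter, PDGFRB is a defining pericyte marker. The part of host or stromal RNA in the matrix result was not tested. The summed signal of 20 endothelial markers ranged from 1411 to 1540 in untreated and from 1269.8 to 1892 in resistant tumours, and that of 20 macrophage and myeloid markers from 2410 to 2789 and from 1797 to 3577. None of the 8 tested endothelial and 10 tested myeloid markers was called, with 0 endothelial and 1 myeloid marker at an unadjusted p under 0.05, and the other 12 and 10 were below the filter. IGKC, the kappa chain constant region of antibodies, rose from 34.6, 55.3, 88.2 and 94.4 to 229, 505, 125, 151 and 161 (1.46 ± 0.39), a call lost without untreated replicate 1, untreated replicate 2 or resistant replicate 2 (adjusted p up to 0.105) and when probe sets open to cross-hybridisation were left out.

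**Figure D3:**
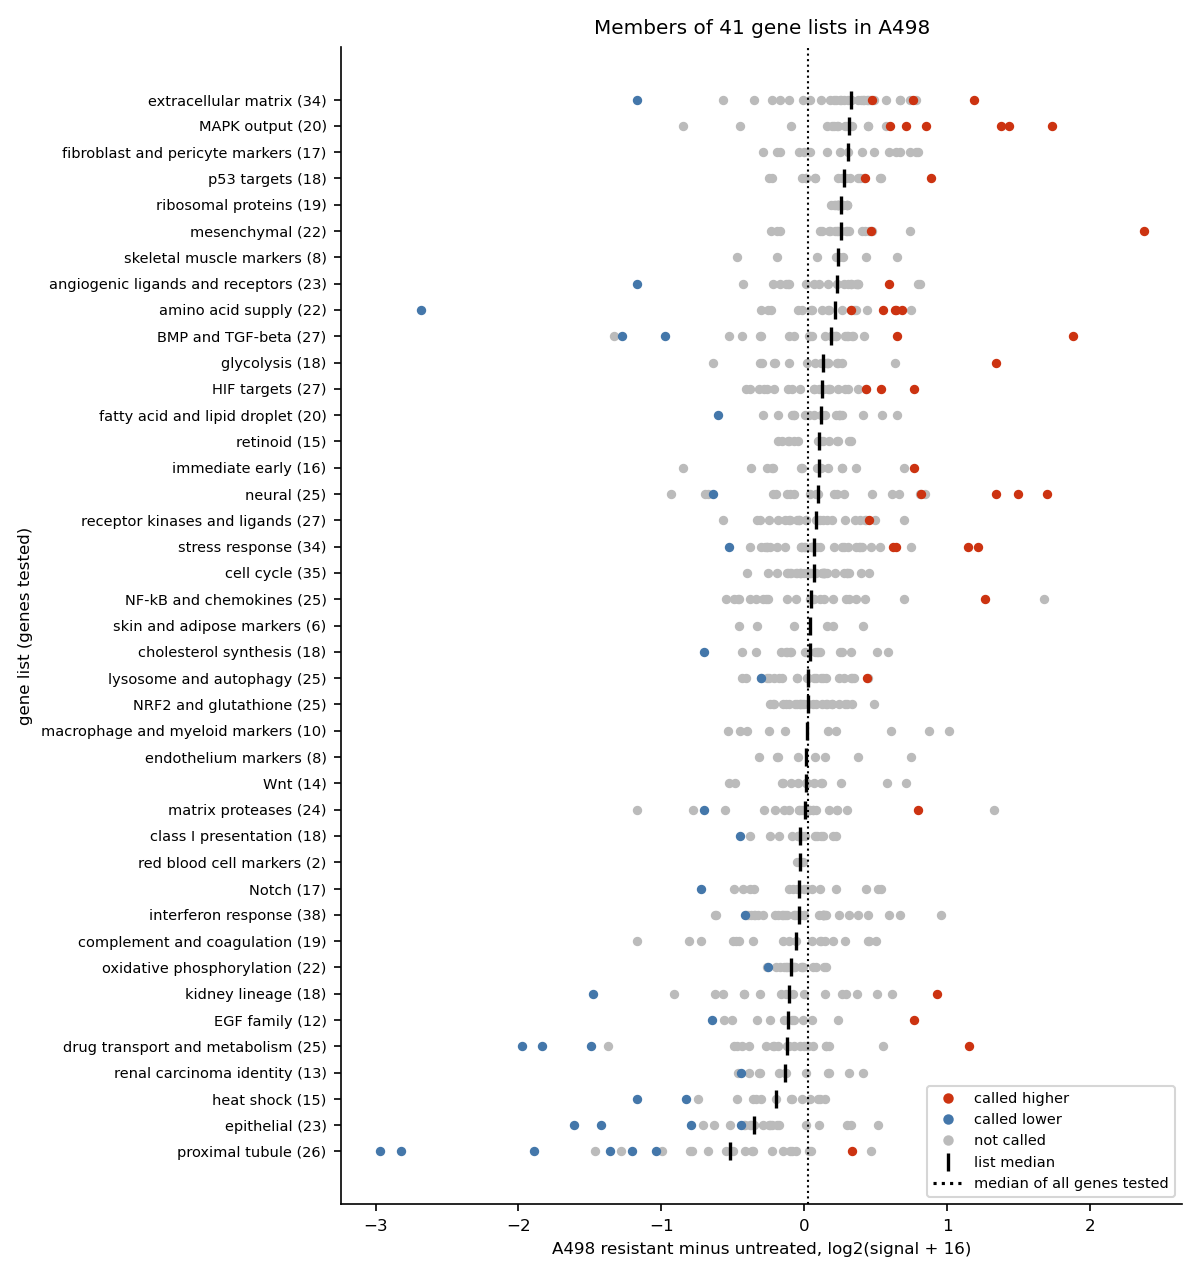
Resistant minus untreated difference (log2) of every tested member of 41 gene lists in A498, ordered by list median (black bar); red points were called higher, blue lower and grey not called, and the dotted line is the median of all genes tested (0.03). The extracellular matrix and MAPK output lists have the highest medians and the proximal tubule list the lowest (-0.52).

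Among VEGF, HIF and receptor kinase genes, VEGFA, FLT1, EPAS1, MET and AXL did not pass the test, and 3 HIF targets rose. VEGFA, the main angiogenic ligand, had signals of 13362, 14988, 12245 and 12949 in untreated and 15513, 20295, 15911, 15805 and 15365 in resistant tumours. All resistant tumours were higher, but the difference of 0.30 ± 0.11 did not pass the test (adjusted p = 0.0894). FLT1, a VEGF receptor, differed by 0.38 ± 0.34 (adjusted p = 0.575). EPAS1, which encodes HIF-2 alpha, differed by 0.16 ± 0.12 (adjusted p = 0.457), and the receptor kinases MET and AXL by 0.20 ± 0.11 and 0.43 ± 0.18 (adjusted p = 0.318 and 0.172). Of 23 tested angiogenic ligands and receptors, 1 rose, SEMA3C, a semaphorin (0.59 ± 0.16), and 1 fell, THBS1, with a median of 0.23. The share called was 8.70%, beside 6.34% of all genes. The SEMA3C groups overlapped, and its call was lost without untreated replicate 1 or 4 or resistant replicate 3, 4 or 5 (adjusted p up to 0.108). It was also lost after centring on the median and in the fit on the 9 A498 arrays. Of 27 tested HIF targets, 3 rose and none fell, with a median of 0.12. That is 11.1%, beside 6.34% of all genes called in either direction and 2.93% called higher. At an unadjusted p under 0.05, 5 HIF targets were higher and 4 were lower, beside 2893 of all 13808 genes in either direction. TGFA, given above, was among them. PDK1, which diverts pyruvate from mitochondria, rose by 0.43 ± 0.11, and KDM3A, a histone demethylase, rose from 1475, 1809, 1868 and 1829 to 2059, 2623, 2596, 2576 and 2889 (0.54 ± 0.09). The mean of the probe sets of KDM3A, PDK1 and TGFA gave no call for any of the 3, and the call of PDK1 was also lost without untreated replicate 2 or resistant replicate 5 (adjusted p up to 0.075). After centring on the median the HIF list had 2 rises and 3 falls, with the mean of probe sets 0 rises and 1 fall, and in the fit on the 9 A498 arrays 1 rise. Without untreated replicate 3 it had 3 rises and 2 falls.

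The proliferation genes showed no call. Of 35 tested cell cycle genes, 0 were called in the limma fit, 0 had an unadjusted p under 0.05 in either direction, and the median was 0.07. MKI67, the proliferation marker Ki-67, had 967, 924, 1059 and 625 in untreated and 812, 686, 1068, 1256 and 804 in resistant tumours, a difference of 0.04 ± 0.19. CDK1, the mitotic kinase, was the member farthest above 0 (0.45 ± 0.23, adjusted p = 0.257). All 19 tested ribosomal protein genes lay between 0.19 and 0.30, with 0 calls and 4 at an unadjusted p under 0.05. Over all 13808 genes tested, 2893 reached that unadjusted level. The ribosomal median depended on the scaling of the arrays. It was 0.26 in the main fit, 0.16 after centring on the median and 0.05 after quantile normalisation. The medians of all genes in these settings were 0.03, -0.07 and 0.007.

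The NF-kB and chemokine list had 4.0% of its members called and the interferon list 2.63%, beside 6.34% of all genes. Of 25 tested NF-kB and chemokine genes, 1 rose, IL6, and none fell, with a median of 0.05. IL6, the interleukin, rose from 237, 359, 284 and 429.6 to 618, 2013, 745, 519 and 639.9, with resistant replicate 2 far above the rest (1.27 ± 0.29, adjusted p = 0.00898). PTX3, a secreted pentraxin of innate immunity that is in neither list, rose from 25.4, 129, 192 and 116 to 345, 443, 399.8, 252 and 218 (1.57 ± 0.33). Of 38 tested interferon response genes, none rose and 1 fell, RIGI, the sensor of viral RNA (-0.42 ± 0.12). After centring on the median, 4 interferon genes fell. TAP1, the peptide transporter of antigen presentation, was the 1 of 18 tested class I genes that fell (-0.45 ± 0.14), or 5.56% of them. The call of RIGI was lost without untreated replicate 1, untreated replicate 3 or resistant replicate 3 (adjusted p up to 0.108), and that of TAP1 without any 1 of 7 tumours, that is all but resistant replicates 1 and 3 (adjusted p up to 0.142) and with probe sets averaged.

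In 786-O tumours under the same drug, 15.2% of the genes tested were called. The 2 comparisons share no arrays. Of the 875 genes called in A498, 279 were also called in 786-O, which is 31.9% of the A498 genes and 13.3% of the 2092 genes of 786-O. The direction was the same for 255 of them, 104 higher and 151 lower in both lines, and opposite for 24. Across the 13808 genes the differences of the lines correlated with Pearson r of 0.22 and Spearman rho of 0.19, where genes are not independent and both comparisons come from 1 fit. In 786-O, SLC17A3 fell by 2.59 ± 0.43, close to its fall in A498, and their difference was -0.39 ± 0.62 (adjusted p = 0.778). ABCB1 (-0.91 ± 0.17 in 786-O), ALDH8A1 (-2.80 ± 0.36), ETV5 (1.44 ± 0.15), ETV1 (1.45 ± 0.30), IL6 (1.20 ± 0.27) and TCN1 (2.13 ± 0.26) also changed in the same direction there.

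The difference between the lines was itself called for 716 genes, or 5.19% of those tested, with A498 above 786-O for 417 and below for 299. Centring on the median gave 191 above and 714 below. FEZ1 rose in A498 and had a difference of -0.68 ± 0.25 in 786-O, which gave a difference between the lines of 2.73 ± 0.36 (adjusted p = 0.000111). BMPR1B (2.88 ± 0.53), BCHE (1.55 ± 0.25), NCAM1 (0.91 ± 0.27), LAMB1 (0.89 ± 0.14) and ASNS (0.59 ± 0.15) were also more positive in A498. CRYBB3 (-3.15 ± 0.33, adjusted p = 5.93e-06), GLDC (-3.76 ± 0.94), HAVCR1 (-1.93 ± 0.40) and GLYAT (-1.86 ± 0.42) were more negative in A498. Some of the largest rises of 786-O were smaller or not called in A498. MMP1, the interstitial collagenase, was below the median signal in all A498 tumours, at 11.4, 3.71, 46.3 and 3.77 in untreated and 23.9, 5.66, 4.03, 3.26 and 5.73 in resistant tumours, and the lines differed by -3.95 ± 0.71. SCD, the stearoyl-CoA desaturase, had 7715, 6384, 5985 and 7709 in untreated and 8929.7, 12407, 11604, 11153 and 10337 in resistant A498 tumours, where the difference of 0.65 ± 0.36 did not pass the test, and the lines differed by -2.60 ± 0.49. TMEM158 rose in both lines, with a line difference of -1.90 ± 0.30.

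By list, the line test called 9 of 38 interferon genes below 786-O and none above, beside 5.19% of all genes in either direction. Of these 38, 22 rose and none fell in 786-O, beside 0 and 1 in A498. The shares called over all genes were 15.2% in 786-O and 6.34% in A498. These 9 genes, named after their values were seen, were IFIH1, IFIT2, IFIT3, ISG15, ISG20, OAS1, IRF9, USP18 and PARP9. Of 20 MAPK genes, of which 13 rose and 1 fell in 786-O, 6 were below and 2 above, the latter being ETV4 (1.84 ± 0.54) and EPHA4. Of 27 HIF targets, of which 11 rose and 1 fell in 786-O, 6 were below and none above. Of 34 matrix genes, of which 2 rose and 11 fell in 786-O, 8 were above and 1 below, and of 17 fibroblast and pericyte markers 5 were above. COL3A1, a fibrillar collagen, differed by 0.78 ± 0.32 in A498 and by -1.93 in 786-O, and 7 of the 17 fibroblast and pericyte markers fell in 786-O. Of 25 genes of the NRF2 and glutathione list, 6 were above and none below. In that list 9 genes fell and none rose in 786-O, while none of the 25 was called in A498 (median 0.03). At an unadjusted limma p under 0.05 in A498, 2 were higher and 1 lower, beside 2893 of all 13808 genes. The share of stromal RNA in these line differences was not tested.

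**Figure D4:**
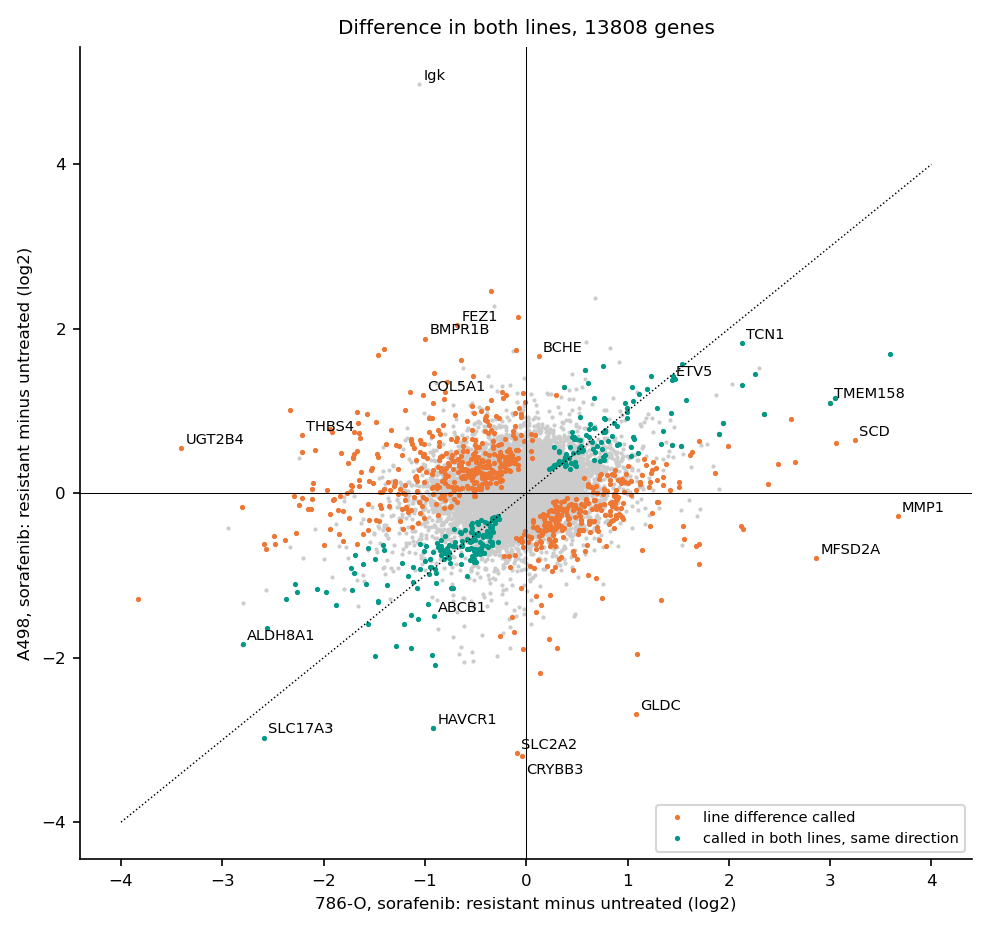
Resistant minus untreated difference (log2) of 13808 genes under sorafenib in 786-O (horizontal axis) and A498 (vertical axis); orange points have a called difference between the lines, green points were called in both lines in the same direction (255 genes, drawn over the orange points), and the dotted line marks equal differences. SLC17A3 and ALDH8A1 lie near that line at the lower left, while CRYBB3 and GLDC lie low on the A498 axis with 786-O values near or above 0, and MMP1 and SCD lie far to the right.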

How the data were processed

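The intensity values are linear signals of probe sets as deposited, which the authors had brought to a common trimmed mean of about 500.1. RMA and MAS5 are both named in the submitters' processing notes with no role given, and the values have the form that MAS5 scaling gives. Detection calls were not used here, and the number of tumours limits the precision. Groups came from the labels. Of 54675 probe sets, 41091 had a single gene symbol in the platform annotation, 1801 had several and 11721 had none. A gene was represented by its single-symbol probe set of highest mean and tested if above the median of all values (89.4) on 4 or more arrays, a filter that 13808 of 19775 genes passed.

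A model with 1 coefficient per group was fitted to log2(signal + 16) over the 28 arrays, using limma 3.58.1 (R 4.3.3) with a shared estimate of the spread, and p-values were adjusted by Benjamini-Hochberg over all genes tested, called under 0.05. Gene lists are described by counts and medians, with no set test. The comparison, its lists and the named genes were chosen with earlier results of these data known. The rule named the 12 largest rises and 12 largest falls without overlap, up to 4 called members per list, a set of key genes, and the 6 largest line differences in each direction, passing over uncharacterised loci and Y-linked genes. PDZK1, BHMT, PCK2, LRP2, KRT18, DUSP6, EGR1, MANF, HSPA5, TRIB3, XBP1, WARS1, GARS1, PHGDH, SLC7A11, NLGN1, CHGA, SNAI2, CDK1 and COL3A1 fell outside it and were chosen after their values were seen. RNA quality was compared by exact permutation. Promoters were matched by gene ID to the RefSeq table. Alternatives were other pseudocounts, filters, probe set rules, scalings, sets of arrays, variance models, a GAPDH covariate, a threshold of 1, and leaving out each array. Probe sets were taken as open to cross-hybridisation by the suffix _s_at, _x_at or _a_at alone, and binding to other genes was not tested. The model was tested on simulated data. Plots were made in Python 3.11.15 using matplotlib 3.10.9.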

Additional observations from a re-analysis of the deposited data

Results flagged for a closer look

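In 7 of 206 groups examined, 1 tumour stood far from the others of its group, and chance alone gives this in about 1 of 20 groups. In untreated tumours, replicate 1 was low for COL5A1 (signal 477) and KDM3A (1475). In resistant tumours, replicate 2 was high for IL6 (2013) and VEGFA (20295) and low for MFSD2A (19.7) and THBS4 (203). Resistant replicate 1 was high for MMP1 (23.9), which was dim in all A498 tumours.

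For 36 of the 103 named genes the change under sorafenib differed between the lines by the interaction test of limma, given as A498 minus 786-O. Over all genes tested, 5.19% were called. The count among named genes cannot be set against that share, because the rule named some of them for this same line difference. Those genes were UGT2B4, AIF1, IGFBP2, CCL5, THBS4, BMPR1B, MMP1, GLDC, MFSD2A, CRYBB3, SLC2A2 and CES4A. Of these, BMPR1B, MMP1, GLDC and CRYBB3 were also named for other reasons. A498 was above 786-O for UGT2B4 (3.96), AIF1 (3.34), IGFBP2 (3.16), CCL5 (3.14), THBS4 (2.92), BMPR1B (2.88) and FEZ1 (2.73). It was also above for IGKC (2.37), COL5A1 (2.21), ETV4 (1.84), BCHE (1.55), EFNB2 (1.10), NCAM1 (0.91), LAMB1 (0.89), PSPH (0.66) and ASNS (0.59). UGT2B4 was below the median signal in all A498 tumours and fell in 786-O, so its line difference comes from 786-O.

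A498 was below 786-O for MMP1 (-3.95), GLDC (-3.76), MFSD2A (-3.65), CRYBB3 (-3.15), SLC2A2 (-3.07), CES4A (-3.05) and SCD (-2.60). It was also below for ANGPTL4 (-2.27), SLC39A5 (-2.18), HAVCR1 (-1.93), TMEM158 (-1.90), SLCO4A1 (-1.90), GLYAT (-1.86) and PLAU (-1.28). Smaller differences in that direction were those of FOSL1 (-1.09), TAP1 (-1.01), DGAT1 (-0.85), EPAS1 (-0.74), SLC2A1 (-0.67) and KRT8 (-0.64). CES4A, a carboxylesterase, had signals of 288, 275, 147 and 406 in untreated and 109.9, 13.8, 18.3, 114 and 100.1 in resistant A498 tumours and was not called there (adjusted p = 0.0786), although the groups did not overlap. ANGPTL4, a secreted lipase inhibitor, had 9277, 6828, 2847 and 6205 in untreated and 7668, 10704, 6453, 5659 and 8014 in resistant A498 tumours, which overlapped.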

How the results depend on the processing

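No paired analysis was possible because the labels give the tumours no replicate numbers that groups share. The count of 875 genes called in A498 became 185 in the fit on the 9 A498 arrays, 1316 with array weights and 2 (both falls) under limma's test against a threshold of 1, and lay between 467 and 1020 when 1 tumour was left out. The count of 716 line differences became 464 without probe sets open to cross-hybridisation and 2 under the threshold of 1, and lay between 506 and 746 with 1 tumour left out. The fit on the 9 arrays keeps the difference of each gene. It estimates the spread from fewer tumours and from A498 alone, so a spread unlike that of 786-O can also change the calls. Under the other alternatives both counts stayed within 1.5 times. Centring on the median lowered the share of rises from 46.3% to 17.8% in A498 and the share of A498 above 786-O from 58.2% to 21.1%. Of 80 called genes named by rule, 49 kept their call whichever tumour was left out. In the fit on the 9 arrays, 32 of the 80 kept it. With the threshold of 1 set aside, 24 kept it under every alternative in which they had a value. Some of the 24, such as BCHE and FEZ1, lacked a value in part of the alternatives. A stricter intensity filter gave values for 64 of the 80 genes and the mean of probe sets for 78. Without the suffixes _s_at, _x_at and _a_at, 61 had a value. ATP6V1H, a subunit of the lysosomal proton pump that fell by 0.30 in the fit over 28 arrays, gave 0.10 with the mean of its probe sets and 0.20 without probe sets open to cross-hybridisation. The cause was not tested. Signal over background limits the dim genes: CRYBB3, SLC22A2, CLDN3, CDH16, UGT1A6, SLC2A2 and WFDC21P in resistant tumours, and FEZ1, BCHE, BMPR1B, CHAC1, ETV4, IGKC, ITPKA, SCG5, ENO2 and WT1 in untreated tumours, had mean values below the filter level, and DGKI had them in both groups.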

Other observations

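A probe set annotated to the mouse immunoglobulin kappa locus, Igk, gave the largest difference of all genes tested, and it was not shared by all resistant tumours. Its signals were 6.95, 108, 13 and 41.9 in untreated and 25378, 40995, 22.7, 1247 and 119.8 in resistant tumours. Resistant replicates 1 and 2 were far above all others, replicate 4 was intermediate, and replicates 3 and 5 lay near the untreated range (difference 4.98 ± 1.5, adjusted p = 0.0462). FDCSP, a peptide secreted by follicular dendritic cells, gave 28.1, 36, 49.2 and 46.8 in untreated and 371, 797, 45.3, 121 and 996 in resistant tumours, with replicates 1, 2 and 5 highest. HP, the haemoglobin-binding plasma protein haptoglobin, gave 27.9, 19.3, 9.8 and 137 and 1035, 164, 28.9, 438 and 198, with replicate 1 highest. MFAP4, a protein of elastic fibres, gave 11, 17.1, 9.34 and 41.3 and 10.5, 262, 189, 264 and 159, and there replicate 1 was as low as the untreated tumours. These genes were chosen after their values were seen.

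Further genes of liver and kidney metabolism fell, also chosen after their values were seen. APOH, a plasma apolipoprotein, had signals of 1564, 1622, 1431 and 1403 in untreated and 419, 571, 421, 528 and 307 in resistant tumours, with little spread in either group (-1.74 ± 0.22, adjusted p = 4.78e-05). FMO1, a flavin monooxygenase of the kidney, fell from 5719, 2908, 3877 and 3945 to 1403, 1208, 730.2, 1140.1 and 1575 without overlap (-1.75 ± 0.41). SLCO4C1, an organic anion transporter of the kidney, had 2124, 612, 277 and 1002 in untreated and 358, 165, 109, 161 and 246 in resistant tumours (-1.93 ± 0.38), and untreated replicate 3 lay below the highest resistant tumour. CXCL14, a chemokine of epithelia, fell by 1.88 ± 0.49 with untreated replicate 1 highest. AGR2, an endoplasmic reticulum protein of secretory epithelia, rose from 226, 837, 1814 and 879 to 4129, 1662, 2587, 3144 and 2022 (1.76 ± 0.51), and the groups overlapped. HMGA2, a chromatin protein of embryonic cells, rose from 498.2, 413, 485 and 251 to 1299, 687, 1125, 1103 and 1256 (1.39 ± 0.23).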
